A study of Mus musculus with 157 samples.

Results

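Of the 9 genes described here, Ccl3, Ccl4 and Ccl22 encode chemokines that activated B cells secrete. Ccr6, Ccr7, Cxcr4, Cxcr5 and S1pr1 encode receptors that position B cells in lymphoid tissue, and Ccrl2 encodes an atypical receptor that binds chemerin. All 9 were taken by gene symbol from a table of 19600 genes, without use of their measured values, and each symbol matched 1 gene. B cells were from spleens of C57BL/6Babr mice and had been activated with lipopolysaccharide (LPS) at 10 µg/ml, a bacterial cell wall component that B cells sense through a Toll-like receptor. The LPS group had 48 h of LPS and nothing else. The LPS+ET group then had etoposide at 20 µM for 4 h, a topoisomerase II poison that leaves breaks in both DNA strands. The LPS+ET+KU group had LPS for 47 h, KU55933 at 10 µM for 1 h and then the same 4 h of etoposide. KU55933 inhibits ATM, a kinase that signals DNA breaks, and no group had the inhibitor without etoposide, so its effect on undamaged cells was not analysed here. Cytoplasmic extracts were spread over sucrose gradients and cut into fractions, and the mRNA in fractions 4 to 16 was sequenced from its 3′ end. By the labels' scheme, monosomes (1 ribosome on an mRNA) were in fractions 4 to 7, light polysomes in 8 to 10, and heavy polysomes in the remaining ones, 11 to 16. Each treatment had 4 gradients, which are named here by treatment and by library pool, LUL15 to LUL18.

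Chemokines are small secreted proteins that draw cells up a gradient, and their receptors are G protein-coupled receptors with 7 membrane-spanning helices. In a lymphoid organ, CXCR5 leads B cells into follicles, CCR7 leads them to the T cell zone and its border, CXCR4 holds germinal centre B cells in the dark zone and plasma cells in the bone marrow, and S1PR1, which senses a lipid rather than a chemokine, lets lymphocytes leave. A B cell that has met antigen or a microbial signal changes this set of receptors, and so moves to another compartment. The number of ribosomes an mRNA can carry is bounded by the length of its coding sequence, so short mRNAs are found in lighter fractions than long ones.

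The libraries of fractions 4 to 16 held between 14724 and 4170688 counts (median 811932), and the 12 gradients summed to between 6404957 counts (LPS+ET of pool LUL16) and 21449781 counts (LPS+ET+KU of pool LUL16). Markers of B cells were abundant in every gradient, with a sum over the 10 listed genes of 6863 to 11196 CPM (counts scaled to a common total per gradient or library). The etoposide-treated gradients of pool LUL16 stood apart from the other pools for 4 of the 9 genes (Ccl3, Ccl4, Ccr7 and Cxcr4), and the changes given for these genes over fractions 4 to 16 are given with and without that pool. In the same 2 gradients, the sum over the 8 T cell markers present in the table was 298.4 CPM (LPS+ET) and 378.7 CPM (LPS+ET+KU), against 87.5 to 160.0 CPM in the other 10, and 293.5 and 372.1 CPM of these sums came from Lck alone. The other 7 reached at most 4.47 CPM (Cd28), 2.61 CPM (Thy1, in LPS+ET+KU of pool LUL16), 2.31 CPM (Cd247), 1.79 CPM (Cd3d), 0.45 CPM (Cd3g), 0.43 CPM (Cd3e) and 0.28 CPM (Cd8a, in LPS+ET+KU of pool LUL16). Sums of NK cell markers were also highest in these gradients, at 1.56 CPM in LPS+ET, against 0.854 to 1.54 CPM in its other pools, and at 4.43 CPM in LPS+ET+KU, against 0.451 to 1.35 CPM. Sums of dendritic cell markers were 19.98 CPM against 11.5 to 16.0 CPM, and 32.1 CPM against 16.4 to 20.1 CPM. Sums of myeloid markers, which ran from 37.9 to 179.5 CPM over all gradients, were lowest of their treatments there, at 55.4 and 64.5 CPM. The part of these cells in the values of Ccl3, Ccl4, Ccr7 and Cxcr4 was not tested.

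The 3 ligand mRNAs had the shortest reading frames of the set, 92 codons each, whereas the 6 receptors had 359 to 382. Those of Ccl3 and Ccl22 are shown because the lighter position of the ligand mRNAs along the gradient, described further on, went with this difference in length. They were read from GENCODE release M21 on GRCm38, with the start and stop codons in capitals.
Ccl3: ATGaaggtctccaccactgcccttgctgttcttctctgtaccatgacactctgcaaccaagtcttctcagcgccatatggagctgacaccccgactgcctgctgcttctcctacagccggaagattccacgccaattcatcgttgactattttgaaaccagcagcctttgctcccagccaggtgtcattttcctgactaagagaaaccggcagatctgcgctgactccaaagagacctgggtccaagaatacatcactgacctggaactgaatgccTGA
Ccl22: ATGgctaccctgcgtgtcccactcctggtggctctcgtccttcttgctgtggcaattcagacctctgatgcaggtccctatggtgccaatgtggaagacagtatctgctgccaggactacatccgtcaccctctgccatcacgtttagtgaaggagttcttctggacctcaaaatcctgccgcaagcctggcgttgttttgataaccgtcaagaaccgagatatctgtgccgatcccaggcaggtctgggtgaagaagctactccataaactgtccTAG
Over an alignment of these reading frames, Ccl3 (chr11:83647844-83649355, minus strand) and Ccl22 (chr8:94745590-94751699, plus strand) shared 50.3% of bases. Reads were counted at transcript 3′ ends, so 1 count stood for 1 transcript end whatever the transcript length, and CPM can be set side by side between genes as far as their ends were primed and aligned equally well.

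Annotated transcript ends are shown for 4 of the genes whose level or distribution changed, as the last 30 transcribed bases before the end nearest the counted site. The counted site lay at this end for Cxcr5, and 20, 306 and 346 bases before it for Ccr7, Ccl22 and Ccrl2, so the windows of Ccl22 and Ccrl2 are not those of the counted ends. The capitals mark the poly(A) signal AATAAA, searched on the transcribed strand only.
Ccl22: ggaaAATAAAtgctcgccaataatacctga
Ccr7: tgaagaaacaAATAAAaaaaaaattttccc
Ccrl2: aagttatttataaaggtgaattccactctt
Cxcr5: tttcaaAATAAAaacaggaagatgtcttca
Of the 8 genes for which such a window could be read, 7 held AATAAA, with 13 to 20 bases between the signal and the end of the window. Over all protein-coding transcripts, 43.5% held it in their last 30 bases. Ccrl2 held none in this window. Ccrl2 (chr9:111054835-111057270, minus strand) was also the gene with the most sites counted, 4 in all, and 53.0% of its counts came from a site in its untranslated last exon 346 bases before the annotated end. The single site of Ccr6 (chr17:8236043-8257127, plus strand) lay 1789 bases past the annotated end of the nearest Ccr6 transcript, outside annotated exons, and no window was read for it. The site of Cxcr5 (chr9:44511788-44556391, minus strand) lay at the end of a Cxcr5 transcript, where Bcl9l runs on the opposite strand. The remaining genes, Ccr7 (chr11:99144196-99155077, minus strand), Cxcr4 (chr1:128588199-128592293, minus strand) and S1pr1 (chr3:115710433-115715055, minus strand), were counted at 1, 2 and 2 sites in untranslated last exons, at or within 302 bases of the annotated end.

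In LPS-activated cells, the follicle-homing receptor Cxcr5 was the most abundant of the 9 mRNAs on ribosomes, followed by Ccr6, Ccr7 and Cxcr4. Their mean levels over fractions 4 to 16 were 264.1 ± 25.8, 148.5 ± 23.9, 74.5 ± 9.82 and 41.1 ± 1.42 CPM (SD, n = 4 gradients, as for all values given as ± below unless an SE is named). The ranges of these 4 genes did not overlap with each other. The other 5 were at 19.1 ± 3.80 CPM (Ccrl2), 18.5 ± 1.49 (Ccl22), 13.6 ± 2.49 (S1pr1), 11.6 ± 6.58 (Ccl4) and 4.34 ± 1.63 CPM (Ccl3). Among these, Ccl4 ran from 7.26 to 21.4 CPM and overlapped with Ccrl2 (15.0 to 23.9), Ccl22 (16.7 to 19.8) and S1pr1 (10.1 to 15.9). Ccrl2 also overlapped with Ccl22 and with S1pr1. The order of Ccrl2, Ccl22, S1pr1 and Ccl4 was therefore not resolved, except that Ccl22 lay above S1pr1 without overlap. Cxcr5 stood at the 95.2 percentile of the genes tested and Ccl3 at the 31.6 percentile. After etoposide, each gene overlapped with its neighbour in the order of levels except Cxcr5, which stayed above the rest. With KU55933, each overlapped with its neighbour except Ccr6 and Ccl22. Counts come from bulk extracts, in which fewer cells that express a gene and less mRNA per cell cannot be told apart.

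**Figure D1:**
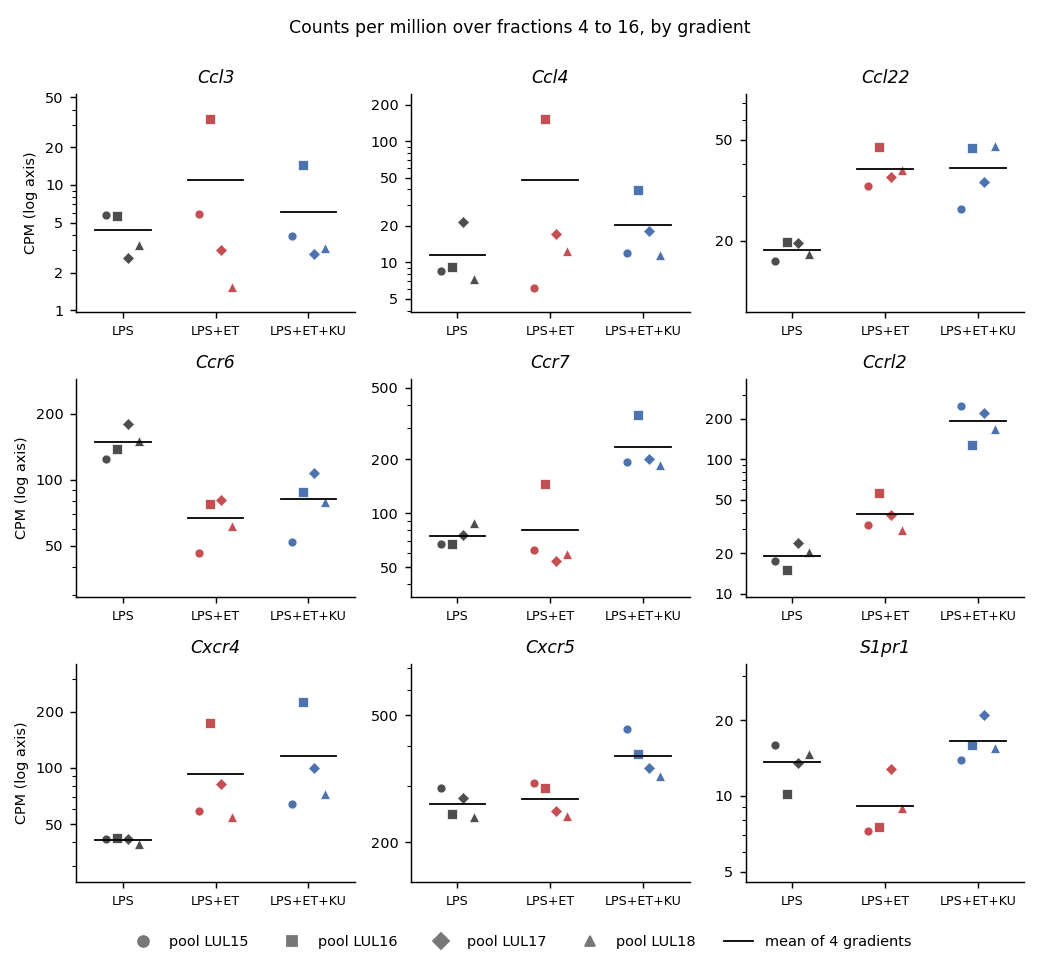
Level of each of the 9 mRNAs over fractions 4 to 16 in CPM (log axis, scaled for each gene), with 1 point per gradient for LPS, LPS+ET and LPS+ET+KU, its shape giving the library pool, and a line at the mean of 4 gradients. Ccrl2 and Ccr7 in LPS+ET+KU lie above every gradient of the other treatments, and pool LUL16 (squares) is highest for Ccl3, Ccl4, Ccr7 and Cxcr4 in both treatments with etoposide.

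Differences between treatments were tested with edgeR's quasi-likelihood test on the summed counts of each gradient, with Benjamini-Hochberg adjustment over the 12755 genes that passed the filter on low counts, and an mRNA was taken as changed at an adjusted p under 0.01. All 9 genes passed the filter, and the adjusted p-values given below are from this test unless another is named. After etoposide alone, Ccl22 rose and Ccr6 fell, 2 of the 9, where 12.7% of all genes tested changed (7.88% rose and 4.81% fell). With KU55933 before etoposide, Ccrl2 was higher than with etoposide alone, 1 of the 9, where 0.455% of genes changed (0.220% were higher and 0.235% lower). Against LPS, the cells with inhibitor and etoposide had higher Ccl22, Ccr7 and Ccrl2, 3 of the 9, where 10.7% of genes changed (6.25% were higher and 4.42% lower). These 3 comparisons share gradients, so they are not independent of each other. At an unadjusted p under 0.05, 6, 4 and 6 of the 9 passed in the same order, where 34.4%, 15.9% and 35.9% of all genes did. Gradients of the same library pool deviated together, and with the pool as a replicate block 4, 3 and 5 of the 9 passed, where 26.7%, 6.36% and 28.1% of all genes did.

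**Figure D2:**
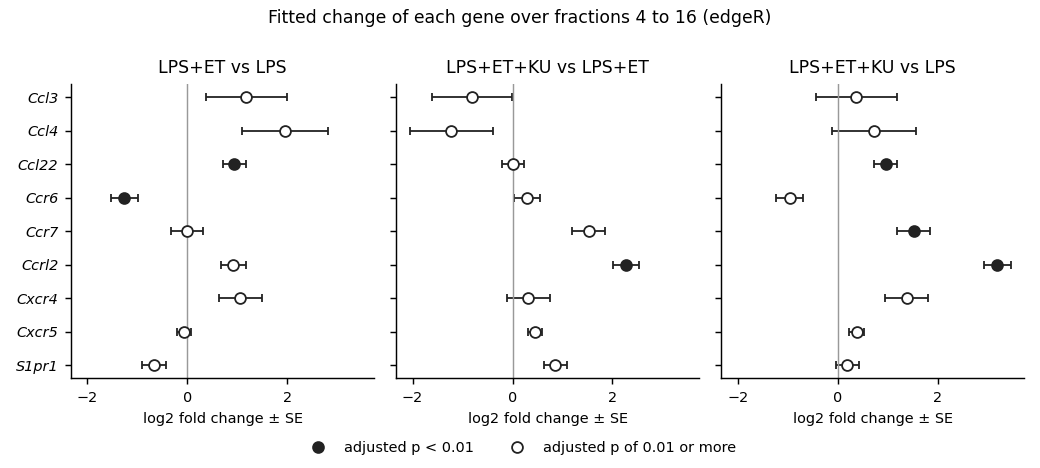
Fitted log2 fold change with its SE for the 9 genes in each of the 3 comparisons over fractions 4 to 16, from edgeR on all 12 gradients. Filled points passed an adjusted p of 0.01: Ccl22 and Ccr6 after etoposide, Ccrl2 for the inhibitor against etoposide alone, and Ccl22, Ccr7 and Ccrl2 for the inhibitor and etoposide against LPS.

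Among the ligands, Ccl22, which attracts regulatory and helper T cells through CCR4, was higher after etoposide with or without the inhibitor. The LPS gradients measured 16.7, 19.8, 19.6 and 17.7 CPM (pools LUL15, LUL16, LUL17 and LUL18, the order used throughout). The etoposide gradients measured 32.8, 47.0, 35.6 and 37.9 CPM, and those with the inhibitor before etoposide 26.8, 46.2, 34.1 and 47.4 CPM. Every etoposide-treated gradient lay above every LPS gradient, while the LPS+ET and LPS+ET+KU ranges overlapped. The log2 fold change was 0.94 ± 0.22 (SE) for LPS+ET against LPS (adjusted p = 0.00832) and 0.96 ± 0.22 for LPS+ET+KU against LPS (adjusted p = 0.00839). Between the 2 groups with etoposide it was 0.02 ± 0.22 (adjusted p = 0.979). Both calls were near the threshold. When 1 gradient was left out, the first held only without LPS+ET of pool LUL15 (adjusted p = 0.00899) and lay between 0.0173 and 0.0359 without each of the other 7, and the second held only without LPS+ET+KU of pool LUL15 (0.00288) and lay between 0.0142 and 0.0347 otherwise. The log2 ratio within pools was positive in 4 of 4 for both, at 0.84 to 1.23 and 0.66 to 1.39.

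Ccl3 and Ccl4, both inflammatory chemokines, did not pass the test in any comparison, and their means were set by pool LUL16. For Ccl4, the LPS gradients stood at 8.47, 9.16, 21.4 and 7.26 CPM, the etoposide gradients at 6.20, 153.6, 17.3 and 12.4 CPM, and those with the inhibitor added at 12.0, 39.8, 18.1 and 11.5 CPM. For Ccl3, the values in the same order of treatments were 5.79, 5.66, 2.60 and 3.29 CPM, then 5.85, 33.4, 3.03 and 1.54 CPM, and last 3.93, 14.4, 2.82 and 3.16 CPM. In both treatments with etoposide the LUL16 gradient was far above the other 3, which overlapped with LPS. For LPS+ET against LPS the log2 fold change was 1.95 ± 0.85 (SE) for Ccl4 (adjusted p = 0.121) and 1.18 ± 0.82 for Ccl3 (adjusted p = 0.344), and without pool LUL16 it turned to -0.12 (adjusted p = 0.880) and -0.31 (adjusted p = 0.606).

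Of the receptors, Ccr6, which responds to CCL20 and marks mature B cells, was the one that fell. Its level was 124.5, 138.9, 180.8 and 150.0 CPM in LPS-only gradients, against 46.6, 77.6, 81.3 and 61.3 CPM after etoposide. The values with the inhibitor were 52.3, 87.9, 107.8 and 79.3 CPM. Each of the 8 etoposide-treated gradients was below each LPS gradient, and the 2 etoposide groups overlapped. The log2 fold change was -1.26 ± 0.27 (SE) for LPS+ET against LPS (adjusted p = 0.00393) and -0.96 ± 0.26 for LPS+ET+KU against LPS (adjusted p = 0.0195, or 6.68e-05 with the pool as a replicate block). With the inhibitor the level was higher than with etoposide alone in 4 of 4 pools, by 0.16 to 0.40 on the log2 scale, a difference that did not pass the test (0.30 ± 0.26, adjusted p = 0.644). The call for etoposide alone was lost, at adjusted p-values of 0.0115 to 0.0149, without LPS+ET of pool LUL15, LPS+ET of pool LUL18, LPS of pool LUL17 or LPS of pool LUL18. Ccr6 was lower in 4 of 4 pools in 11 of 13 fractions after etoposide.

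Ccr7, the receptor for CCL19 and CCL21, was higher where the inhibitor preceded etoposide, and not after etoposide alone. LPS gradients held it at 67.1, 67.5, 75.5 and 88.0 CPM and etoposide gradients at 62.2, 145.4, 54.3 and 59.4 CPM. With the inhibitor it reached 193.9, 351.2, 200.2 and 185.3 CPM. The 4 inhibitor gradients lay above all other 8. LPS+ET was below LPS in 3 of the 4 pools and above it in LUL16. The fold change was near 0 on the log2 scale (adjusted p = 0.998), and without that pool it was -0.51 (adjusted p = 0.0396). LPS+ET+KU against LPS gave 1.52 ± 0.33 (SE, adjusted p = 0.00540), or 1.22 (adjusted p = 0.000505) without pool LUL16, and this call held without LPS+ET+KU of pool LUL15 or of pool LUL17 and lay between 0.0109 and 0.0229 without each of the other 6 gradients. The inhibitor group against etoposide alone gave 1.53 ± 0.33 (adjusted p = 0.0326). The latter passed with the pool as a replicate block (1.58 ± 0.21 SE, adjusted p = 0.000461), without LPS+ET of pool LUL16 (adjusted p = 0.00202) and without the whole pool (1.73, adjusted p = 0.000445), and the log2 ratio was 1.27 to 1.87 within the 4 pools.

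Ccrl2, an atypical receptor that binds chemerin and does not signal like a chemokine receptor, showed the largest difference of the 9. LPS gradients were at 17.5, 15.0, 23.9 and 20.3 CPM, and inhibitor gradients at 246.9, 127.2, 220.2 and 166.7 CPM. Etoposide alone lay in between, at 32.5, 55.7, 38.1 and 29.9 CPM. The 3 treatments did not overlap. The log2 fold change was 3.19 ± 0.27 (SE) for LPS+ET+KU against LPS (adjusted p = 9.87e-06) and 2.27 ± 0.26 for LPS+ET+KU against LPS+ET (adjusted p = 0.00143), and both held when any 1 of the 8 gradients compared was left out. The second was lost when only the 8 gradients of those groups were fitted (adjusted p = 0.0166). No gene passed in that edgeR fit, although 1603 of 12357 were under 0.05 before adjustment. DESeq2 called 412 of 13080 genes, but in a fit of the gradients of all treatments, not of these 8 alone. These counts therefore do not compare the methods on the same gradients. The smallest of the within-pool differences from etoposide alone was that of pool LUL16, a log2 ratio of 1.18 against 2.46 to 2.91 in the other 3. For etoposide alone the difference was 0.92 ± 0.25 (adjusted p = 0.0183), and 0.00694 with the pool as a replicate block. Without pool LUL16 it was 0.60 (adjusted p = 0.0360). Zbtb46, a dendritic cell marker, rose with Ccrl2, at means of 1.61, 3.76 and 9.55 CPM in the 3 treatments. It was called in the same comparisons and after etoposide alone. Other dendritic cell markers did not share this pattern. Flt3 overlapped among the treatments, at 8.11 to 10.9, 7.53 to 13.9 and 6.96 to 18.4 CPM. Siglech, Xcr1 and Itgax reached at most 0.31, 0.78 and 0.84 CPM in any gradient. The part of dendritic cells in the level of Ccrl2 was not tested.

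Cxcr4, the receptor for CXCL12, was higher in every etoposide-treated gradient than in LPS. It lay between 39.1 and 42.2 CPM in the 4 LPS gradients. The etoposide gradients were at 58.9, 173.3, 82.3 and 54.4 CPM, and those with the inhibitor at 63.9, 225.7, 99.6 and 72.2 CPM. The groups with etoposide did not overlap with LPS, and LUL16 was the highest in both. The spread among them left the fold change outside the threshold, at 1.06 ± 0.43 (SE, adjusted p = 0.0944, or 0.57 and 0.0849 without pool LUL16) for LPS+ET and 1.38 ± 0.43 (adjusted p = 0.0348) for LPS+ET+KU against LPS. The second passed with the pool as a replicate block (1.14 ± 0.23 SE, adjusted p = 0.00150) and was 0.86 (adjusted p = 0.0180) without pool LUL16.

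The summed level of Cxcr5 differed little. In the LPS gradients 294.8, 245.9, 276.0 and 239.8 CPM were measured, after etoposide 306.3, 294.8, 250.3 and 241.4 CPM, and with inhibitor and etoposide 452.2, 377.3, 341.7 and 321.6 CPM. The inhibitor gradients were above all others, and the other 2 groups overlapped. The log2 fold change was -0.06 ± 0.14 (SE, adjusted p = 0.796) for LPS+ET against LPS and 0.44 ± 0.14 (adjusted p = 0.127) for the inhibitor against etoposide alone. Within pools the latter was 0.36 to 0.56, positive in 4 of 4.

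S1pr1, the egress receptor, measured 15.9, 10.1, 13.6 and 14.7 CPM without etoposide and 7.25, 7.49, 12.7 and 8.97 CPM with it. The inhibitor gradients were at 13.9, 15.9, 20.95 and 15.6 CPM. LPS+ET was the lowest group in 4 of 4 pools, its range overlapped with that of LPS and it stayed below all 4 inhibitor gradients. The log2 fold change was -0.67 ± 0.23 (SE, adjusted p = 0.0558) for LPS+ET against LPS and 0.86 ± 0.23 (adjusted p = 0.0755) for the inhibitor against etoposide alone. Both passed with the pool as a replicate block, at -0.71 ± 0.18 SE (adjusted p = 0.00613) and 0.88 ± 0.18 SE (adjusted p = 0.00554). S1pr1 had few counts, a mean of 177 per gradient.

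Counted without a model, groups that did not overlap were Ccl22, Ccr6, Ccrl2 and Cxcr4 for LPS+ET against LPS, 4 of the 9, where 26.4% of all genes tested were apart. Between the inhibitor group and etoposide alone they were Ccr7, Ccrl2, Cxcr5 and S1pr1, 4 of the 9 and all higher with the inhibitor, where 8.26% of genes were apart and 4.07% were apart and higher. Between the inhibitor group and LPS they were Ccl22, Ccr6, Ccr7, Ccrl2, Cxcr4 and Cxcr5, 6 of the 9, against 26.3% of genes.

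Along the gradient in LPS, the mean profiles of the 3 ligand mRNAs peaked in light polysomes, whereas those of 4 of the 6 receptors peaked in heavy polysomes. By these means, Ccl3 and Ccl4 peaked in fraction 9 and Ccl22 in fraction 10, all light polysomes, with 19.1 ± 3.26%, 18.4 ± 4.77% and 18.8 ± 5.47% of the mRNA there. These shares are of CPM, with each fraction library scaled to the same total, since libraries were made from equal RNA concentrations. Ccr6 and Ccr7 peaked in fraction 13 (15.7 ± 1.42% and 12.1 ± 0.479%) and Cxcr5 and Cxcr4 in fraction 14 (16.2 ± 4.05% and 12.8 ± 4.47%), which are heavy polysomes. Single LPS gradients departed from these means. Ccl22 was highest in fraction 4 in pools LUL15 and LUL18, Ccl4 in fraction 4 in LUL18 and Ccl3 in fraction 6 in LUL17. Cxcr4 was highest in fraction 4 in LUL15 and in fraction 7 in LUL17. Ccrl2 had a flat profile in LPS with its highest mean in fraction 9 (11.9 ± 3.66%), and S1pr1 had its highest mean in fraction 4 (12.1 ± 21.2%), where the SD exceeded the mean. With the inhibitor, the highest mean share of Ccl3 was in fraction 15, again with a wide spread (15.3 ± 15.3%). Fraction 4 held the libraries of fewest counts, 14724 for LPS of pool LUL18 and 17629 for LPS of pool LUL17, so shares and ratios in that fraction are the least precise.

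**Figure D3:**
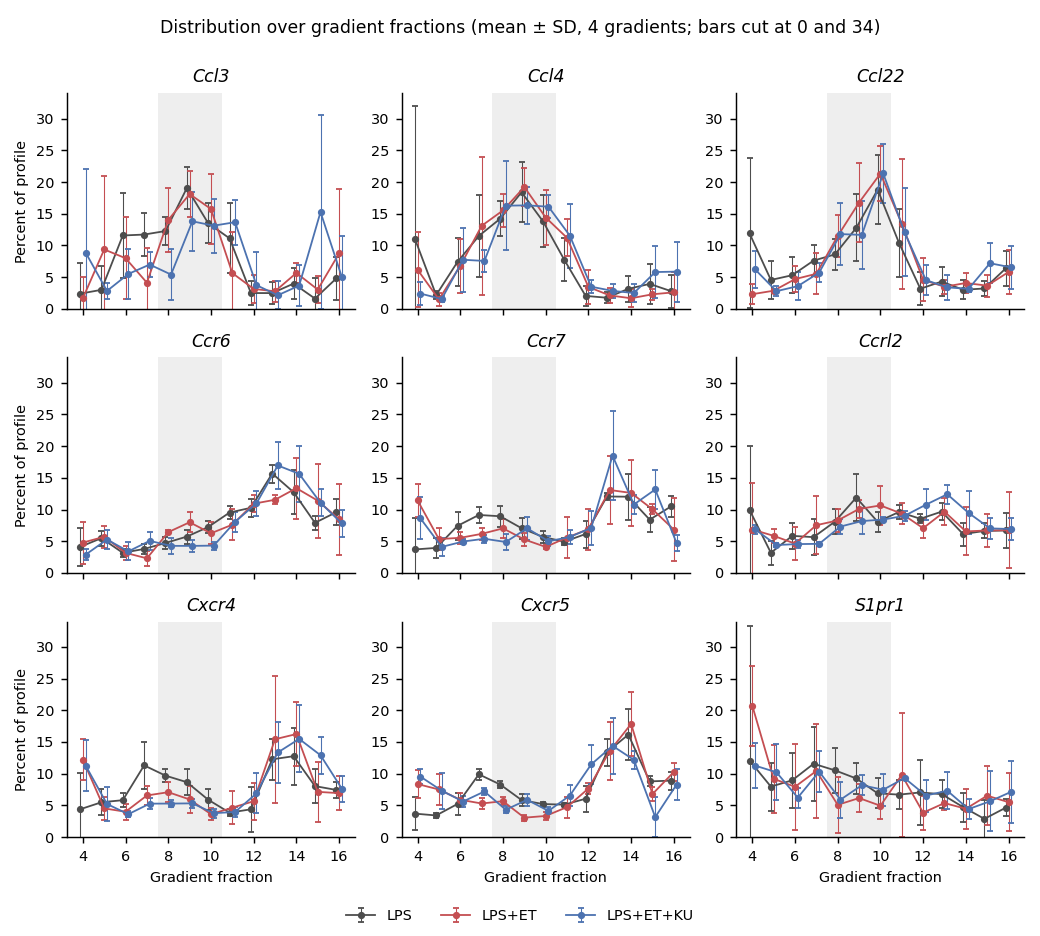
Mean share of each mRNA in each fraction, in percent of its CPM summed over fractions 4 to 16, for LPS, LPS+ET and LPS+ET+KU, with error bars for the SD of 4 gradients (cut at the limits of the axis) and the light polysomes shaded. Ccl4 and Ccl22 peak in light polysomes (fractions 9 and 10), whereas Ccr6 and Cxcr5 peak in heavy polysomes (fractions 13 and 14).

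In LPS, the mean share in heavy polysomes was smallest for the ligands. There it was 21.4 ± 5.24% for Ccl4, 26.5 ± 4.00% for Ccl3, 30.5 ± 4.29% for Ccl22 and 32.8 ± 8.96% for S1pr1. It was 47.3 ± 2.49% for Ccrl2, 48.7 ± 4.37% for Cxcr4, 54.1 ± 4.06% for Ccr7, 58.4 ± 2.46% for Cxcr5 and 65.7 ± 3.13% for Ccr6. In 11 of 12 gradients the 5 receptors other than S1pr1 all had a larger heavy share than each of the 3 ligands, and LPS+ET+KU of pool LUL16 was the exception. S1pr1 was below the other 5 receptors in 11 of 12 gradients, with LPS+ET of pool LUL16 as the exception. In LPS+ET+KU the mean share of S1pr1 (40.4%) was below that of the ligand Ccl3 (43.5%).

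Among 164 genes of under 100 codons, the median heavy share in LPS was 21.7% (quartiles 16.5% and 30.5%). Ccl3 and Ccl4 fell between these quartiles and Ccl22 at the upper one. Among 1169 genes of 300 to 399 codons the median was 54.4% (quartiles 44.2% and 63.2%). Ccrl2, Cxcr4, Ccr7 and Cxcr5 were within these quartiles and Ccr6 was above the upper one. S1pr1, with 382 codons, had a smaller heavy share than the lower quartile of its length class. Its share varied from 21.5% to 43.0% among the LPS gradients and is the least precise of the receptors.

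**Figure D4:**
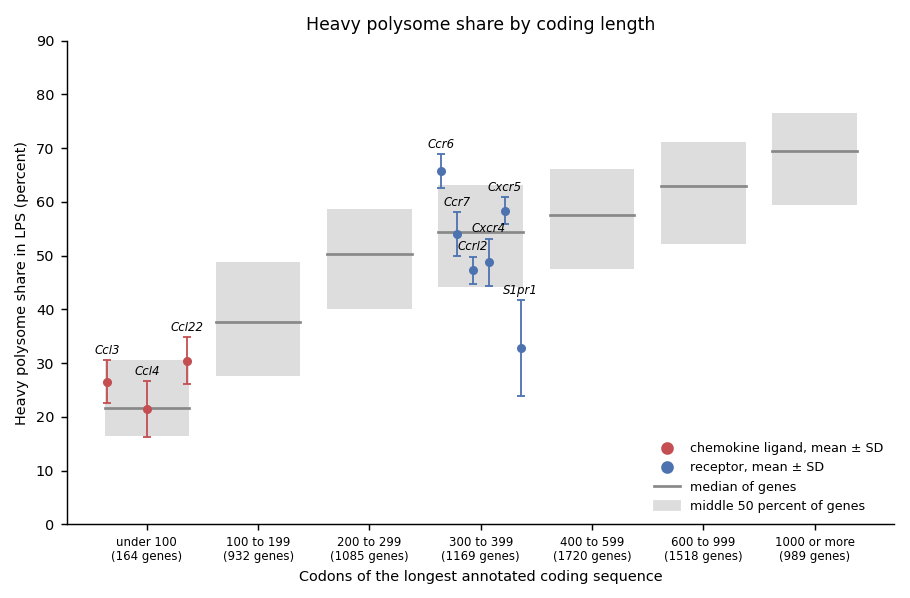
Share in heavy polysomes in LPS (percent, mean of 4 gradients) by class of coding length in codons, with points and bars for the mean and SD of the 9 genes, spread sideways within their class to be told apart, and grey lines and boxes for the median and quartiles of all genes of the class. The ligands at 92 codons lie at 21.4% to 30.5%, S1pr1 at 382 codons at 32.8%, and the other receptors at 47.3% to 65.7%.

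No gene of the set passed the test of RiboLoad, the logit of the heavy share tested with limma, in any of the comparisons. In the study, RiboLoad is a transcript's reads in heavy polysomes out of all its reads, compared between treatments by a cut-off. Here each fraction was first scaled to CPM, so the measures differ. Of the 8 genes tested (Ccl3 was under the minimum of 100 counts per gradient), 0, 0 and 0 passed after etoposide, for the inhibitor against etoposide alone, and for both drugs against LPS, where 0.325%, 0 and 0.775% of genes did. At an unadjusted p under 0.05 the counts were 0, 1 and 3, where 20.7%, 8.61% and 21% of genes passed. The 1 gene was Ccrl2, whose heavy share was 46.8, 41.8, 50.7 and 44.9% in LPS+ET and 54.1, 52.7, 58.2 and 57.5% in LPS+ET+KU. It was larger with the inhibitor in 4 of 4 pools, by 9.53 ± 2.59 percentage points, without overlap, and the adjusted p was 0.388. The heavy share was also larger with the inhibitor in 4 of 4 pools for Ccl3 (14.5 ± 9.56 points), Ccl4 (8.71 ± 5.77) and Ccr7 (4.88 ± 1.52). Cxcr5 moved the other way in 4 of 4 pools, by -4.87 ± 2.54 points, with overlap and an adjusted p of 0.692. Compared with LPS, Ccl4 (10.6 ± 3.27 points, adjusted p = 0.146), Cxcr4 (11.5 ± 6.99 points, adjusted p = 0.145) and Ccrl2 (8.31 ± 2.68 points, adjusted p = 0.148) had a larger heavy share with both drugs in 4 of 4 pools. So did Ccl22 (6.42 ± 4.29 points, adjusted p = 0.493) and Ccr6 (4.78 ± 2.48 points, adjusted p = 0.444).

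Tested by class of fraction, the inhibitor's difference in Ccr7 and Ccrl2 was present in monosomes and light polysomes, and that of Ccrl2 in heavy polysomes too. Against etoposide alone, 2 of the 9 passed in monosomes, where 0.213% of genes did. These were Ccr7 (1.43 ± 0.19 SE, adjusted p = 0.00279) and Ccrl2 (2.09 ± 0.25, adjusted p = 0.00186). The same 2 passed in light polysomes, at 1.63 ± 0.26 SE (adjusted p = 0.00922) and 2.00 ± 0.27 (adjusted p = 0.00376), where 0.292% of genes did. In heavy polysomes Ccrl2 alone passed (2.39 ± 0.32 SE, adjusted p = 0.00228), where 0.572% of genes did. Ccr7 there was 1.31 ± 0.50 (adjusted p = 0.224), with LPS+ET ranging from 58.8 to 283.3 CPM, and without LPS+ET of pool LUL16, its highest gradient, the adjusted p was 0.00560. Leaving out 1 gradient at a time, Ccrl2 kept its call in 6 of 8, 4 of 8 and 6 of 8 cases for the 3 classes, with a highest adjusted p of 0.0267, and Ccr7 in 3 of 8 and 1 of 8 cases for monosomes and light polysomes, with a highest of 0.0485. Both genes were higher with the inhibitor in 4 of 4 pools in 13 of 13 fractions.

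Against LPS, the cells with inhibitor and etoposide had higher Ccrl2 in monosomes (3.17 ± 0.26 SE, adjusted p = 1.62e-05), light polysomes (2.93 ± 0.28, adjusted p = 2.41e-05) and heavy polysomes (3.39 ± 0.33, adjusted p = 2.16e-05), and these calls held without any 1 gradient. Ccr7 was higher in monosomes (1.37 ± 0.19 SE, adjusted p = 0.000368) and in light polysomes (1.18 ± 0.26, adjusted p = 0.00767). Ccr6 was lower in light polysomes (-1.35 ± 0.24 SE, adjusted p = 0.00174). That made 2, 3 and 1 of the 9 in the 3 classes, where 5.96%, 7.13% and 7.95% of genes changed. The light polysome call for Ccr7 held in 2 of 8 cases with 1 gradient left out, with a highest adjusted p of 0.0307, and that for Ccr6 in 8 of 8.

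After etoposide alone, Ccr6 was lower in monosomes (-1.07 ± 0.25 SE, adjusted p = 0.00838) and in light polysomes (-0.99 ± 0.23, adjusted p = 0.00856), where 9.52% and 10.6% of all genes changed. Both calls were near the threshold. Leaving out 1 gradient gave 0.0101 to 0.0263 for monosomes in all 8 cases, and for light polysomes the call held only without LPS+ET of pool LUL16 (0.00426) and lay between 0.0156 and 0.0285 otherwise. In heavy polysomes none of the 9 passed, where 9.69% of genes did. At an unadjusted p under 0.05 there were 4, where 31.8% of genes passed, and by DESeq2 there was 1, where 12.7% did. Ccr6 was the nearest (-1.24 ± 0.31 SE, adjusted p = 0.0125).

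Cxcr5 was the gene whose distribution changed without a change in the sum. In light polysomes the LPS gradients held 263.4, 191.7, 221.1 and 187.1 CPM of it, the etoposide gradients 148.4, 141.9, 126.8 and 117.6 CPM, and the inhibitor gradients 270.8, 222.3, 208.2 and 223.9 CPM. LPS+ET was below both other groups without overlap. Light polysome Cxcr5 fell after etoposide (-0.81 ± 0.16 SE, adjusted p = 0.00263), and it was 0.68 ± 0.16 higher with the inhibitor than with etoposide alone (adjusted p = 0.0498, outside the threshold). The call held in 5 of 8 cases with 1 gradient left out, and the adjusted p was 0.0109 to 0.0125 without LPS+ET of pool LUL17, LPS+ET of pool LUL18 or LPS of pool LUL15. The share of Cxcr5 mRNA in light polysomes was 19.3 ± 1.37% in LPS. It was 12.1 ± 0.91% after etoposide alone and 14.3 ± 0.44% when the inhibitor came first.

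By single fraction, Cxcr5 was lower after etoposide in 4 of 4 pools in fractions 7, 8, 9 and 15 and higher in 4 of 4 in fractions 4 and 5. In fraction 7 the mean level was 317.7 CPM in LPS and 182.1 CPM in LPS+ET (log2 ratio within pools -0.82 ± 0.12), and in fraction 9 it was 186.1 and 102.8 CPM (-0.84 ± 0.22). In fraction 5 it was 110.4 and 249.1 CPM (1.17 ± 0.52). The groups did not overlap in fractions 5, 7 and 9. With the inhibitor, fraction 7 stood at 344.9 CPM and fraction 9 at 279.3 CPM, both above LPS+ET without overlap (log2 ratios of 0.94 ± 0.27 and 1.42 ± 0.20).

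**Figure D5:**
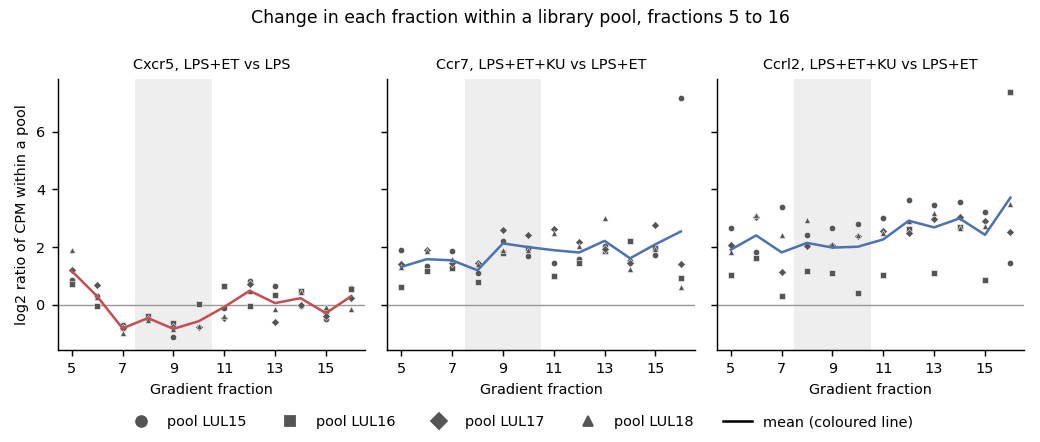
Log2 ratio of CPM within a library pool for fractions 5 to 16, for Cxcr5 in LPS+ET against LPS and for Ccr7 and Ccrl2 in LPS+ET+KU against etoposide alone, with 1 point per pool, a coloured line at the mean and the light polysomes shaded. All 4 pools lie below 0 for Cxcr5 in fractions 7 to 9 and above 0 in fraction 5, whereas Ccr7 and Ccrl2 lie above 0 throughout.

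A model of single-fraction libraries with a treatment by fraction interaction, fitted with edgeR over all genes, found an interaction for Cxcr5 after etoposide (adjusted p = 0.000423, and 6.79e-06 with a term per gradient), 1 of the 9, where 1.37% of genes had one. Without LPS+ET of pool LUL18, LPS of pool LUL15 or LPS of pool LUL17 the adjusted p rose to between 0.0103 and 0.0665. For the inhibitor against etoposide alone none of the 9 had an interaction, where 1.05% of genes did. At an unadjusted p under 0.05 there was 1 gene, Cxcr5, with an adjusted p of 0.0674, where 9.20% of genes passed. In the same model, the test for a difference in any fraction called Ccl22, Ccr6, Ccrl2, Cxcr4 and Cxcr5 after etoposide, 5 of the 9, where 31% of genes were called. It called Ccr7, Ccrl2 and Cxcr5 for the inhibitor against etoposide alone, 3 of the 9, where 8.01% of genes were called. With the pool as a replicate block, Ccl4 (adjusted p = 0.00241) and S1pr1 (0.000283) were also called after etoposide, 7 of the 9, where 41.7% of genes were. Ccr6 (0.00106) was then also called for the inhibitor against etoposide alone, 4 of the 9, where 18.3% of genes were. These models treat the 13 libraries of a gradient as separate samples, so p-values of the test for any fraction are too small. For the interaction, a term per gradient called more genes, not fewer. It called 593 of 10360 after etoposide, against 142 without the term. For the inhibitor against etoposide alone it called 380 of 10472, against 110. Neither test was used to order the genes.

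Of 10 further chemokine ligands tested, Ccl25 was higher after etoposide (1.34 ± 0.30 SE, adjusted p = 0.00566), from 1.66 ± 0.516 to 4.49 ± 0.896 CPM, 1 of the 10 where 7.88% of all genes rose. Ccl5, another inflammatory chemokine, and Cxcl10, an interferon-inducible ligand of CXCR3, were higher with the inhibitor than with etoposide alone, 2 of the 10 where 0.220% of all genes were. Ccl5 went from 39.9 ± 14.0 to 169.4 ± 20.3 CPM (2.09 ± 0.22 SE, adjusted p = 0.000905). No further ligand was lower in any of the 3 comparisons. With the 3 ligands of the set included, the median log2 fold change of the 13 was 0.63 after etoposide, against 0.03 over all genes tested.

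Of 10 further chemokine and positioning receptors tested, 0 rose and 3 fell after etoposide, where 4.81% of all genes fell. These were Gpr183, the oxysterol receptor that takes activated B cells to the outer follicle (-1.19 ± 0.18 SE, adjusted p = 0.000396), S1pr4 (-1.65 ± 0.31, adjusted p = 0.00168) and Ccbp2, a scavenger of inflammatory chemokines (-2.57 ± 0.51, adjusted p = 0.00276). Gpr183 stood at 26.4 ± 4.06 CPM in LPS and at 12.5 ± 0.920 CPM after etoposide. With the inhibitor it was at 7.65 ± 0.857 CPM, again lower than in LPS (-1.89 ± 0.18 SE, adjusted p = 2.44e-05). The median log2 fold change over the 16 receptors tested, the 6 of the set included, was -0.03 after etoposide and 0.31 for the inhibitor against etoposide alone, against 0.03 and 0.04 over all genes. Without the 6 of the set, the medians of the 10 were 0.002 and -0.22. For the inhibitor against etoposide alone, 0 of the 10 passed, where 0.455% of all genes did.

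For each of the 4 genes called over fractions 4 to 16, the mRNAs with the nearest pattern over the 12 gradients were sought among 7999 others with 100 or more counts per gradient, by the root mean square difference of centred log2 CPM. Ccl22 was followed most closely by Trim62 (0.19), Fam105a (0.22) and Tmem222 (0.22), and Ccr6 by Elk3 (0.18), 2510002D24Rik (0.21) and Cenpa (0.23). Ccr7 was followed by Tsc22d3 (0.26), Gpt2 (0.28) and Ddit3 (0.32). For Ccrl2 the nearest were Ccl5 (0.48), Grasp (0.48) and Dusp4 (0.49). These differences are larger, but Ccrl2 itself also varied more over the gradients than Ccl22, Ccr6 and Ccr7. The measure was not scaled to this variation, so it does not show whether the likeness is looser. The points share libraries and depth, and the measure is a description.

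The only library of fraction 17, from LPS, held 777 counts, with 0 counts for each of the 9 genes.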

How the data were processed

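Splenic B cell mRNA was followed along 12 sucrose gradients, 4 for each of LPS, LPS+ET and LPS+ET+KU, in 156 libraries of fractions 4 to 16 and 1 of fraction 17. The authors made each library from the same concentration of RNA with barcoded primers that carry random bases, removed PCR duplicates, trimmed A tracts, aligned tags to GRCm38 and deposited them as counts per Ensembl gene at poly(A) sites, without normalization. The submitters' processing notes name TopHat2 2.0.12, TopHat, HTSeq and DESeq2 1.6.3. Because RNA input was equalised, the total of a library does not measure how much mRNA a fraction held, and all levels are relative to the other mRNAs in the same library.

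The table was checked to hold whole numbers in 157 columns and 19600 genes. Column names gave treatment, fraction and library pool. They matched 79 columns to 1 labelled sample and 78 to treatment and fraction only, so gradients are named by treatment and pool. Deviations of log2 CPM from treatment means, taken across genes, correlated at 0.341 to 0.821 (median 0.586) for the 12 same-pool pairs and at -0.646 to 0.315 (median -0.202) for the 36 other pairs. The pools were therefore taken to pair the gradients in the within-pool ratios and in the fits with the pool as a replicate block. No label ties a pool to an animal or a day. The main tests did not use this pairing. The labels do not say whether gradients came from separate animals, so p-values measure the spread between gradients.

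Counts were summed per gradient over fractions 4 to 16, or over a class of fractions, and tested with edgeR 4.0.16 (TMM, default filter on low counts, quasi-likelihood F-test, two-sided) with 1 term, treatment, in a fit of all 12 gradients. A gene was called when its adjusted p (Benjamini-Hochberg) was under 0.01, as in the study's methods. The heavy polysome share was computed after each fraction was scaled to CPM, with 0.5 CPM added on each side of the logit and a minimum of 100 counts per gradient, and tested with limma 3.58.1. Single fractions were tested with edgeR on the libraries of 2 treatments. DESeq2 1.42.0 was an alternative. The functions were tested on simulated counts beforehand. R 4.3.3, Python 3.11.15, numpy 2.4.6, pandas 2.3.3 and matplotlib 3.10.9 were used.

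The 9 genes, the gene lists and the tests were chosen with earlier results of these data known, so no list is independent evidence. All 9 genes are named in each comparison. From each list of other genes, at most 3 per direction with the lowest adjusted p among those called are named, and for each of the 9 that was called, the 3 nearest patterns. Of 8000 genes with enough counts for the heavy share, 7577 (94.7%) had a coding length. Coordinates are 1-based on GRCm38. A few results, among them values of 1 gene that the rule would name, are not reported here.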

Additional observations from a re-analysis of the deposited data

Results flagged for a closer look

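In groups of 4 gradients, 9 of 54 tested on level or heavy polysome share had 1 gradient far from the other 3, where chance flags about 1 in 20 groups, and in 6 of the 9 it was the highest value and came from pool LUL16. The level of Ccl3 was 33.4 CPM in LPS+ET of pool LUL16 against 1.54 to 5.85 CPM in the other 3 gradients, and 14.4 CPM in LPS+ET+KU of the same pool against 2.82 to 3.93 CPM. Ccl4 was at 153.6 CPM in LPS+ET of pool LUL16 against 6.20 to 17.3 CPM. In LPS its highest level was 21.4 CPM in pool LUL17, against 7.26 to 9.16 CPM elsewhere. Ccr7 was at 145.4 CPM in LPS+ET of pool LUL16 against 54.3 to 62.2 CPM, and at 351.2 CPM in LPS+ET+KU of that pool against 185.3 to 200.2 CPM. The heavy polysome share of Cxcr4 was 64.8% in LPS+ET of pool LUL16 against 52.6% to 54.1%. In LPS, the heavy share of Ccl4 was 13.6% in pool LUL18 against 23.1% to 24.6%, and that of Ccrl2 was 43.6% in pool LUL15 against 48.3% to 48.9%.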

How the results depend on the processing

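The number of the 9 genes that passed over fractions 4 to 16 was 2 for LPS+ET against LPS, 1 for the inhibitor against etoposide alone, and 3 for LPS+ET+KU against LPS. With the library pool as a replicate block it was 4, 3 and 5, where 26.7%, 6.36% and 28.1% of all genes passed. A threshold of 0.05 gave 3, 2 and 5, where 22.5%, 2.5% and 22.8% of all genes passed, and DESeq2 gave 3, 2 and 5, where 15.6%, 3.15% and 16.4% did. Without a filter on low counts the first was 1, where 7.70% of all genes passed. With only the gradients compared the second was 0 (Ccrl2, adjusted p = 0.0166), where 0 of 12357 genes passed. Without pool LUL16, a choice made after seeing the data, the first was 1 and the second 2, where 16.3% and 2.14% of all genes passed. In monosomes, LPS+ET against LPS (1 called) gave 2 with the block and with DESeq2 and 0 without pool LUL16, where 24.6%, 10.2% and 9.32% of all genes passed. LPS+ET+KU against LPS (2) gave 5 with the block and 4 with DESeq2, where 23.2% and 8.99% did. In light polysomes, LPS+ET against LPS (2) gave 5 with the block and 4 with DESeq2. In heavy polysomes, LPS+ET against LPS (0) gave 3 with the block, 1 with DESeq2 and 1 without pool LUL16, where 20.6%, 12.7% and 15.1% of all genes passed. There, the inhibitor against etoposide alone (1) gave 2 with the block and 2 without that pool, where 3.27% and 1.36% of all genes passed. LPS+ET+KU against LPS (1) gave 5 with the block, 2 with DESeq2 and 3 without that pool, where 21.4%, 12.9% and 13.4% did. Over all genes, the shares called in these 3 classes ran from 3.27% to 25% with the block, from 1.08% to 12.9% with DESeq2 and from 0.486% to 15.1% without pool LUL16. Leaving out 1 gradient at a time gave 0 to 1, 1 to 2 and 1 to 3 over fractions 4 to 16, in the order above. Over all genes, 1082 to 1761, 19 to 172 and 755 to 1708 of 12948 to 13079 were then called. In monosomes 0 to 0, 0 to 2 and 2 to 3 were called. Over all genes, these were 520 to 759, 2 to 38 and 258 to 661 of 8873 to 9397. In light polysomes 0 to 2, 0 to 2 and 2 to 4 were called. Over all genes, these were 706 to 1074, 2 to 52 and 356 to 813 of 10095 to 10199. In heavy polysomes 0 to 1, 0 to 2 and 1 to 1 were called. Over all genes, these were 721 to 1364, 9 to 105 and 457 to 1106 of 11560 to 11624. With 1 gradient left out, RiboLoad gave 0 throughout, where 4 to 21, 0 and 0 to 17 of 8000 genes were called. A difference in any fraction gave 4 to 6 and 3 to 4. Over all genes, these were 2348 to 3576 of 10522 to 10932, and 406 to 1173 of 10420 to 10930. The interaction gave 0 to 1 and 0 to 1, where 43 to 163 and 30 to 151 of the same genes were called.

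Signs turned only for values that had not passed the test. For LPS+ET against LPS, the log2 fold change without pool LUL16 was -0.31 for Ccl3 and -0.12 for Ccl4, with equal weight per fraction 0.080 for Ccr7 and 0.091 for Cxcr5, and with only the gradients compared 0.018 for Ccr7. Between the groups with etoposide it was 0.21 for Ccl4 without pool LUL16 and -0.0032 for Ccl22 with the block. For LPS+ET+KU against LPS it was -0.36 for Ccl3 without pool LUL16. RiboLoad differences for LPS+ET against LPS were -0.072 for Ccr7 and 0.021 for Ccrl2 without pool LUL16. Taken from raw counts, RiboLoad differences of Ccl22 were -0.088, -0.00021 and -0.089 in the 3 comparisons. Between the groups with etoposide those of Ccr6, Ccr7, Cxcr4 and S1pr1 were -0.031, -0.40, -0.56 and -0.27, and for LPS+ET+KU against LPS those of Ccr6, Ccr7 and S1pr1 were -0.24, -0.075 and -0.20. The direction of these RiboLoad differences therefore depends on how fractions are scaled. With 1 gradient left out, ranges that cross 0 for LPS+ET against LPS were -0.50 to 1.55 (Ccl3), -0.044 to 2.40 (Ccl4) and -0.48 to 0.14 (Ccr7). They were -1.70 to 0.88 (Ccl3), -1.78 to 0.77 (Ccl4), -0.12 to 0.19 (Ccl22) and -0.23 to 0.85 (Cxcr4) between the groups with etoposide, and -0.54 to 0.61 (Ccl3) for LPS+ET+KU against LPS. For RiboLoad in LPS+ET against LPS they were -0.061 to 0.24 (Ccl4), -0.19 to 0.012 (Ccr6), -0.088 to 0.12 (Ccr7), -0.11 to 0.0077 (Ccrl2) and -0.053 to 0.28 (S1pr1), and between the groups with etoposide -0.087 to 0.22 (Ccl22). The cause of each change was not tested. At a mean of 85.3 counts per gradient, the depth allowed no RiboLoad test for Ccl3.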

Other observations

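Of 34 genes tested that carry or regulate signals downstream of chemokine receptors, 1 rose and 4 fell in LPS+ET against LPS, where 7.88% and 4.81% of all genes did. Their median log2 fold change was -0.51 against 0.03 over all genes. Rgs18, which shortens signals from G protein-coupled receptors, rose (3.45 ± 0.51 SE, adjusted p = 0.000299). Rap1a, a GTPase that switches on integrins (-1.18 ± 0.18 SE, adjusted p = 0.000484), Grk6, a kinase of activated receptors (-1.41 ± 0.22, adjusted p = 0.000545), and Elmo1, a partner in Rac activation (-1.86 ± 0.32, adjusted p = 0.00105), fell. Rgs2 was the 1 gene of the list that rose with the inhibitor against etoposide alone (0.96 ± 0.15 SE, adjusted p = 0.00607), where 0.220% of all genes did.

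Of 17 lymphocyte adhesion molecules tested, 1 rose and 3 fell after etoposide, where 7.88% and 4.81% of all genes did. None passed for the inhibitor against etoposide alone, where 0.455% of all genes did. Among those that fell were Pecam1 (-1.82 ± 0.20 SE, adjusted p = 3.00e-05) and Cd47 (-1.09 ± 0.19, adjusted p = 0.000933), and Itga6, an integrin chain, rose (1.69 ± 0.35, adjusted p = 0.00336). Against LPS, 4 adhesion molecules were lower with the inhibitor and etoposide, where 4.42% of all genes were. Among them were Cd24a (-1.57 ± 0.27 SE, adjusted p = 0.00128) and Fermt3 (-0.88 ± 0.17, adjusted p = 0.00259).

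Of 15 transcription factors and surface partners of egress tested, 1 rose and 4 fell after etoposide, where 7.88% and 4.81% of all genes did. Foxo3 rose (1.09 ± 0.19 SE, adjusted p = 0.00103). Cd69, which binds S1PR1 and holds cells in tissue, was at 63.4 ± 8.10 CPM in LPS. It stood at 26.1 ± 3.76 CPM after etoposide and at 50.1 CPM with the inhibitor, and fell after etoposide (-1.39 ± 0.19 SE, adjusted p = 0.000155), as did Irf8 (-1.99 ± 0.28, adjusted p = 0.000251). Cd83, an activation marker, fell after etoposide (-1.27 ± 0.15 SE, adjusted p = 6.18e-05) and was higher with the inhibitor than with etoposide alone (1.00 ± 0.15, adjusted p = 0.00558). Foxo1 was lower with the inhibitor and etoposide than in LPS (-0.97 ± 0.18 SE, adjusted p = 0.00199).

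Among markers of cell type, 4 of 11 B cell rows tested fell after etoposide, where 4.81% of all genes did. They were led by Ebf1 (-1.998 ± 0.21 SE, adjusted p = 2.39e-05) and Fcer2a (-1.74 ± 0.20, adjusted p = 5.35e-05). Against LPS, 4 B cell rows were lower with the inhibitor and etoposide, where 4.42% of all genes were. Of 5 plasma cell markers tested, 1 rose and none fell after etoposide (median log2 fold change 0.11), where 7.88% of all genes rose. The same gene was lower when the inhibitor preceded etoposide (median of the list -0.81 against etoposide alone), where 0.235% of all genes were. That gene was Sdc1, a surface marker, which stood at 5.17 ± 1.57 CPM in LPS and at 61.3 ± 21.95 CPM after etoposide, and was at 16.3 ± 7.18 CPM with the inhibitor. Against LPS, Sdc1 was higher and Irf4 lower with inhibitor and etoposide. None of 5 T cell markers and of 1 NK cell marker tested changed. Of 9 myeloid and 2 dendritic cell markers tested, Cd14 (LPS+ET+KU against LPS, 3.83 ± 0.51 SE, adjusted p = 0.000248) and Zbtb46 (LPS+ET against LPS, 1.09 ± 0.24, adjusted p = 0.00456) were higher. Zbtb46 was also higher with the inhibitor than with etoposide alone (1.35 ± 0.22 SE, adjusted p = 0.00840) and than in LPS (2.45 ± 0.23, adjusted p = 2.22e-05).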
